A study of Homo sapiens with 14 samples.

Results

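The peaks described here lie in a 9.5 Mb block of chromosome band 11q13, from 68500000 to 78000000 on chromosome 11 of hg19, with the cyclin gene CCND1 at 69.46 Mb. Members were all peaks of 14 ATAC-seq peak lists that overlap this interval. They number 26486 of 1971391 peaks in the lists as deposited, with 1547 to 3449 per RH30 library and 613 to 704 per LHCN library. Merged over all lists, they form 3856 regions of 410350 in the genome. The block was chosen by its high number of RH30 peaks relative to LHCN in these same lists, so every comparison of RH30 with LHCN below is a description and carries no test.

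ATAC-seq inserts sequencing adapters into open DNA with the Tn5 transposase, and a peak is a place where insertions pile up above their surroundings. RH30 is an established alveolar rhabdomyosarcoma line that carries the PAX3-FOXO1 fusion, and LHCN is an immortalised line of human myoblasts. The 14 libraries, each from 100000 cells, form 7 groups of 2. RH30 cells received 200 nM QC6352, a compound that inhibits histone demethylases of the KDM4 family, or 0.1% DMSO, and in a separate experiment one of 2 hairpins, labelled shKDM4B-813 and shKDM4B-814, or a control hairpin labelled shCtrl. LHCN cells expressed PAX3-FOXO1 or an empty vector for 72 hours, and the hairpin cells were also taken at 72 hours. All RH30 groups thus carry the fusion, each line stands for 1 cell source, and the labels do not say whether the 2 libraries of a group came from separate cultures. The lines were not checked against marker genes here, because no annotation of the files' build was used.

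CCND1 encodes cyclin D1, which with CDK4 or CDK6 phosphorylates the retinoblastoma protein and lets a cell enter S phase. The band is one of the segments most often gained or amplified in human tumours, and the genes next to CCND1 are often gained with it. In RefSeq order, used for names only, CCND1 is preceded by TPCN2, an endolysosomal cation channel, and MYEOV. It is followed by LTO1, the fibroblast growth factors FGF19, FGF4 and FGF3, the chloride channel ANO1, the death-receptor adaptor FADD, PPFIA1, the actin-binding protein gene CTTN and the scaffold gene SHANK2. DHCR7, for the last step of cholesterol synthesis, and NADSYN1, for NAD synthesis, come next. No region below is assigned to a gene, because those positions are on another build. A peak list holds places called, not openness per DNA copy, and copy number was not measured in these files.

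The names of the peaks inside 6 of the 14 lists go against the labels. The libraries labelled shCtrl hold peaks named after sh813, those labelled shKDM4B-813 hold peaks named after sh814, and those labelled shKDM4B-814 hold peaks named after shCtrl. The other 8 lists match their labels. Groups below follow the labels, hairpin groups are written as labelled, and each hairpin result is also given by peak names. The RH30 to LHCN comparison does not depend on this, since all 6 are RH30 libraries in both readings.

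RH30 lists were far richer in block peaks than LHCN lists. List lengths ran from 93488 to 176899 peaks, so each list was cut to its 93488 strongest peaks by −log10 q. At that length the 10 RH30 libraries held 918 to 2281 block peaks with a median of 1704, and the 4 LHCN libraries held 360 to 390. No RH30 library came near the LHCN range. The block took 1.81% ± 0.465 of an RH30 list (SD, n = 10) and 0.403% ± 0.0150 of an LHCN list (SD, n = 4), a ratio of 4.50. Single RH30 libraries gave ratios of 2.44 to 6.06 over the LHCN mean. Without trimming, the ratio of shares was 4.84 and that of block peak numbers 3.58, the LHCN lists being longer.

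The RH30 libraries differed widely among themselves. Block peaks numbered 2082 and 1897 with QC6352 and 1267 and 1510 with DMSO. They numbered 918 and 1594 in the libraries labelled shKDM4B-813, 1389 and 1813 in those labelled shKDM4B-814, and 2171 and 2281 in those labelled shCtrl. In LHCN they numbered 360 and 370 with PAX3-FOXO1 and 386 and 390 with vector. The first library labelled shKDM4B-813 stood lowest in RH30, at well under its own replicate, and the libraries labelled shCtrl stood highest. Replicates also shared fewer regions in RH30. The regions present in both replicates were 52.7% to 62.7% of those present in either within the RH30 groups, and 83.4% and 87.0% in the LHCN groups with PAX3-FOXO1 and with vector. Over all regions those shares were 54.8% to 65.6% in the RH30 groups and 81.9% and 85.5% in the LHCN groups with PAX3-FOXO1 and with vector, so the lines differed in the same way across the genome.

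**Figure D1:**
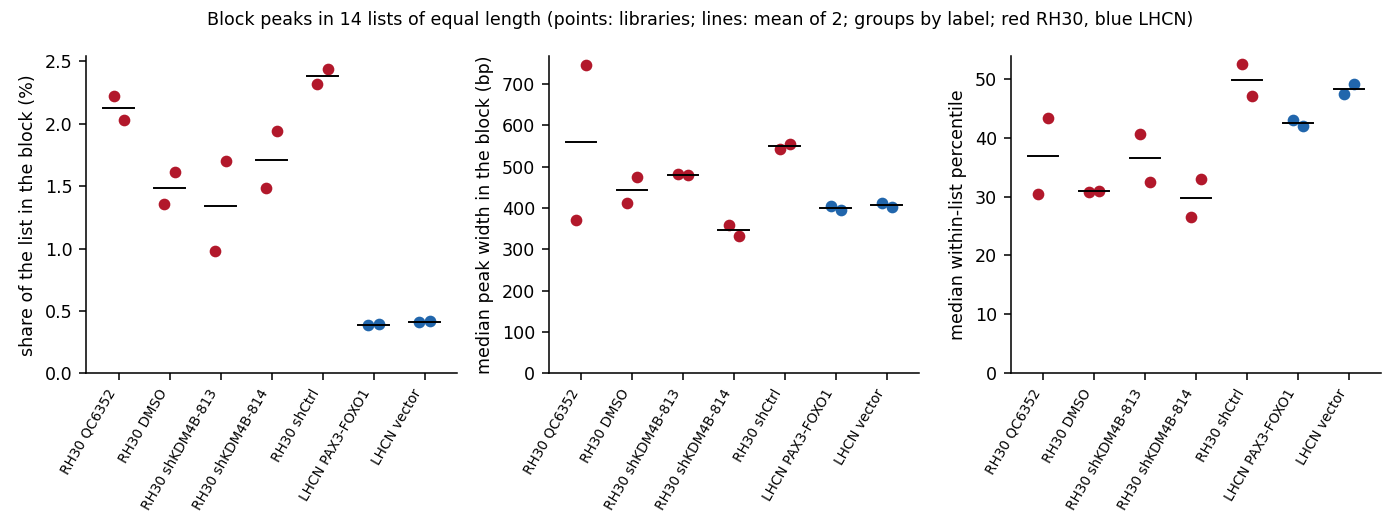
Block peaks in 14 lists of equal length, by group as labelled. Panels show the share of the list in the block (percent), the median peak width in the block (bp) and the median within-list percentile by −log10 q. Points are libraries, red for RH30 and blue for LHCN, and each line is the mean of 2. Shares lie between 0.982% and 2.44% in RH30 and between 0.385% and 0.417% in LHCN.

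Block peaks in RH30 were packed closely and some were very long. Peaks covered 12.4% ± 5.82 of the block in RH30 (SD, n = 10) and 2.25% ± 0.134 in LHCN (SD, n = 4). The median gap between neighbouring peaks averaged 1623 bp in RH30, within 627 to 4264 bp, against 13423 bp in LHCN, within 12427 to 14405 bp. The longest block peak reached 13314 bp in an RH30 library, the second QC6352 library, and 2983 bp in an LHCN library. Median width was less uniform. It was 333 to 747 bp in RH30 block peaks and 396.5 to 413 bp in LHCN block peaks, ranges that overlap. In each RH30 library, however, block peaks were wider than that library's peaks elsewhere, whose median was 306 to 463 bp. In LHCN the rest of the genome had medians of 403 to 415 bp, and block peaks were within 13 bp of it.

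In 9 of 10 RH30 libraries the median block peak ranked below the middle of its list, beside a set of strong ones. Strength is given as a percentile within a list, where 100 is the strongest peak by −log10 q. A merged region takes, in each library, the percentile of its strongest peak there. The median block peak stood at the 26.4th to 52.5th percentile in RH30, with a median over libraries of 32.7, and at the 42.0th to 49.0th in LHCN. The highest RH30 values were those of the libraries labelled shCtrl, 52.5 and 47.1. The weakest 25% of the list held 34.8% ± 10.3 of RH30 block peaks (SD, n = 10) and 28.4% ± 3.04 of LHCN block peaks (SD, n = 4). The strongest 10% of the list still held 112 to 188 block peaks in each RH30 library, against 21 to 40 in each LHCN library. Those counts follow the larger number of RH30 block peaks. As a share of block peaks the strongest 10% made up 8.46% ± 1.82 in RH30 (SD, n = 10), within 6.01% to 12.3%, and 7.91% ± 2.34 in LHCN (SD, n = 4), within 5.83% to 10.3%, and these shares overlap.

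By window of 1 Mb, the excess ran through the block and was largest from 70 to 71 Mb. In each of the 10 windows, of 1 Mb except for the first, the lowest RH30 library had more peaks than the highest LHCN library. From 70 to 71 Mb the RH30 libraries held 119 to 445 peaks with a median of 282, and the LHCN libraries 24 to 27, a ratio of means of 11.0. That ratio ranked 1 among 2438 autosomal windows with at least 5 LHCN peaks on average. The window from 69 to 70 Mb, which holds CCND1, followed with 106 to 296 peaks in RH30 and 35 to 39 in LHCN, a ratio of 5.84 and rank 15. Beyond it the ratio varied without a steady fall. It was 4.87 from 71 to 72 Mb, 5.06 in the next window, then 3.54, 2.96, 4.38 and 3.85, and 2.19 from 77 to 78 Mb, where RH30 held 52 to 104 peaks and LHCN 32 to 36. The window of 0.5 Mb from 68.5 to 69 Mb gave 2.74, with 30 to 103 peaks in RH30 and 18 to 20 in LHCN.

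Over those 2438 autosomal windows, the 9 whole windows of the block included, the same ratio had a median of 0.761 and a 95th percentile of 2.57. Of the 9 whole windows of the block, 9 were above 2 times that median, as were 14.8% of all windows, and 8 were above the 95th percentile. The other windows of chromosome 11 had a median ratio of 0.870. These ranks restate how the block was selected and are given for scale.

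**Figure D2:**
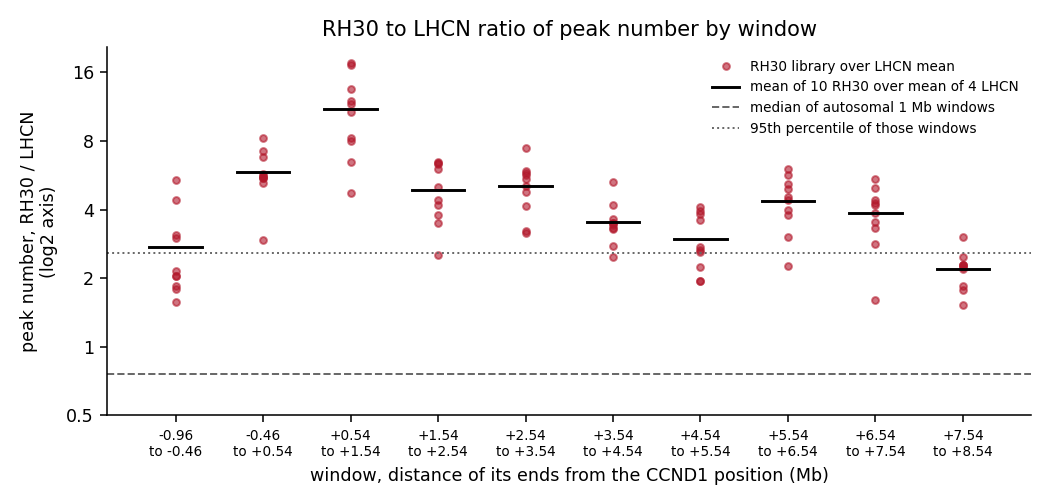
Ratio of peak number, RH30 over LHCN, in the 10 windows of the block on a log2 axis, with lists of equal length. The horizontal axis gives the distance of each window's ends from the CCND1 position in Mb, and the first window is 0.5 Mb long. Points are single RH30 libraries over the LHCN mean, black lines are the ratio of means, and grey lines are the median (0.761, dashed) and 95th percentile (2.57, dotted) of autosomal windows. The window from 70 to 71 Mb stands highest at 11.0.

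Width and strength also varied along the block. The mean over RH30 libraries of the median peak width was 531 bp from 72 to 73 Mb and 509 bp from 75 to 76 Mb, and it was lowest at 421 bp from 77 to 78 Mb. In LHCN the widest windows were others, with 488 bp from 68.5 to 69 Mb. Between 70 and 71 Mb, where the ratio of numbers was largest, the mean of the RH30 median percentiles was 33.1, within 21.1 to 47.1, and that of LHCN was 45.1, within 39.6 to 50.9. The densest window was thus not the one with the strongest typical peak.

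The left side of the dense segment showed a step next to CCND1. In the 50 kb that hold the CCND1 position, from 69450001 to 69500000, RH30 libraries had 6 to 17 peaks with a median of 8, and LHCN libraries 7 or 8. The lines overlapped there. In the next 50 kb, from 69500001 to 69550000, RH30 had 11 to 26 peaks with a median of 22, and LHCN had 2 in each of 4 libraries. Taken from 50 to 250 kb above the CCND1 position, RH30 held 48 to 107 peaks with a median of 95.5, and LHCN 3 or 4. Below the CCND1 position the 50 kb interval held 3 to 6 peaks in RH30 and 5 or 6 in LHCN.

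Around CCND1 itself the peak numbers of the lines overlapped. Within 10 kb of the position, RH30 had 4 to 11 peaks and LHCN 5 or 6. The strongest of them stood at the 61.3rd to 88.8th percentile in RH30 and at the 67.1st to 87.4th in LHCN. The nearest region, chr11:69457354-69459870, was present in all 14 lists, with a percentile of 38.4 to 82.0 in RH30 and 27.5 to 58.9 in LHCN. A pair of neighbours below it, chr11:69453568-69454499 and chr11:69455088-69456322, were also in all 14 lists. In the trimmed lists another neighbour, chr11:69451124-69451590, was present in 4 of 4 LHCN and 0 of 10 RH30 libraries.

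**Figure D3:**
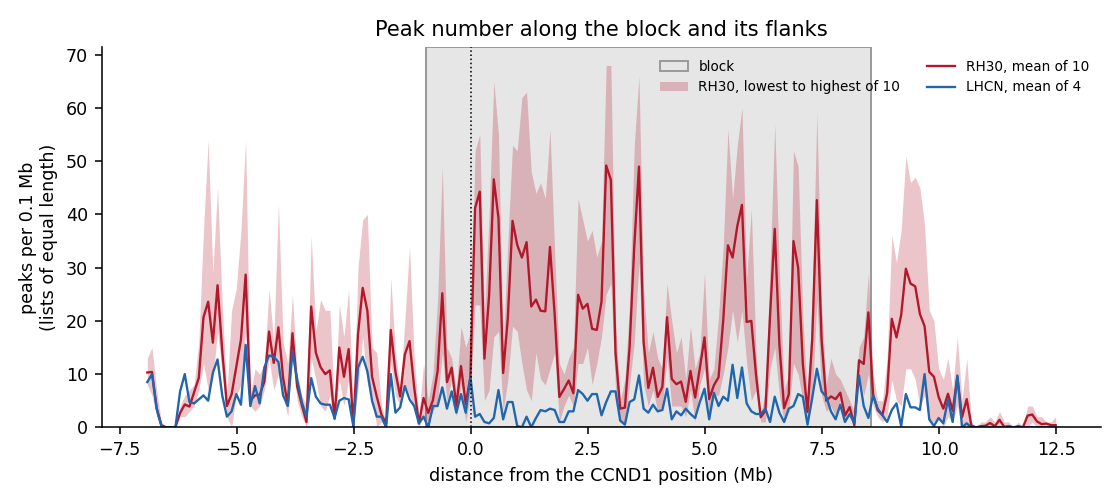
Peaks per 0.1 Mb along the block (grey) and its flanks in lists of equal length, against the distance from the CCND1 position in Mb (dotted line at 0). The red line is the mean of 10 RH30 libraries with the range of the libraries as a band, and the blue line is the mean of 4 LHCN libraries. RH30 numbers step up directly above the CCND1 position, and the LHCN line shows no such step.

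The outer edges were less definite than that step. They were read in windows of 0.5 Mb moved by 0.1 Mb, walking out from CCND1 until the ratio fell to 2 times its autosomal median or below, or a window held no LHCN peak. With the mean of 10 RH30 libraries the last rich windows were centred at 65.95 Mb and 77.45 Mb. By single library the left edge was at 69.35 Mb in 7 of 10 libraries, at 65.85 Mb in the first QC6352 library and the first labelled shCtrl, and at 63.45 Mb in the second labelled shCtrl. The cut-off differed, since each library had its own autosomal median. It ran from 0.506 in the second library labelled shCtrl to 0.857 in the first labelled shKDM4B-813. The libraries with left edges below 69.35 Mb had the lowest medians. The right edge lay between 74.35 and 79.55 Mb. The left edge of the mean moved to 69.35 Mb when either library labelled shCtrl was left out, and likewise without the first PAX3-FOXO1 or the first vector library of LHCN. Just outside the stated limits, the 0.5 Mb from 68 to 68.5 Mb held a mean of 43.6 peaks in RH30 and 19.8 in LHCN, against 52.1 in RH30 and 19.0 in LHCN just inside. On the right, the 0.5 Mb from 78 to 78.5 Mb held 38.5 in RH30 and 16.0 in LHCN, against 50.3 in RH30 and 18.8 in LHCN just inside. The full window from 78 to 79 Mb had a ratio of 4.63, so an RH30 excess was also seen past the block's limit. Its right part, from 78.5 to 79 Mb, differed from the block by group. In LHCN it held 4 and 3 peaks with vector and 32 and 35 with PAX3-FOXO1. In RH30 it held 203 and 185 with DMSO and 52 and 70 with QC6352. Right edges beyond 79 Mb include this stretch.

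Merged into regions, most block regions had a peak in at least 1 RH30 library and in no LHCN library. The trimmed lists gave 2755 block regions of 243086 in the genome. Regions in all 10 RH30 and no LHCN library numbered 160, or 5.81% of block regions, where the share over all regions was 1.73%. Regions in all 4 LHCN and no RH30 library numbered 6, or 0.218%, where the share over all regions was 5.66%. Regions in all 14 libraries numbered 192, or 6.97%, where the share over all regions was 9.68%. Regions in at least 1 RH30 and no LHCN library made up 84.2% of block regions and 51.2% of all regions. Of these 2320 block regions, 859 were found in 1 RH30 library only, against 63710 of 124421 such regions over the genome. That share was lower in the block. With 10 RH30 and 4 LHCN libraries, this class is reached more easily by RH30. Of block regions present in all 4 LHCN libraries, 75.6% (192 of 254) were present in all 14, against 36.0% over the genome.

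By their strongest peak, the regions shared by all 14 lists ranked higher in RH30 within the block. A wide region that holds several RH30 peaks takes the best of them, and the part of this in the result was not tested. Over the 192 shared block regions, library medians of the percentile were 85.7 to 94.8 in RH30 and 60.4 to 67.9 in LHCN. Over the 23343 shared regions elsewhere they were 80.8 to 84.1 in RH30 and 81.0 to 81.9 in LHCN. The RH30 median was above the LHCN median in 90.1% of shared block regions and in 52.5% of shared regions elsewhere. This holds for the strongest peak of each shared region. Over all block peaks, counted singly, the median percentile was lower in 7 of 10 RH30 libraries than in any LHCN library.

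The strongest RH30-only regions sat together. The 5 with the highest median RH30 percentile all lay between chr11:70392288 and 70515750, a span of 123.5 kb that begins 932 kb above the CCND1 position. In RH30 the first, chr11:70439512-70443619, stood at the 99.1st to 99.8th percentile in 10 of 10 libraries, with authors' fold values over background of 24.0 to 66.9. The second, chr11:70483017-70484757, ran from 88.8 to 99.9, and chr11:70449028-70452501 from 98.3 to 99.6. The others, chr11:70511963-70515750 and chr11:70392288-70399164, had lowest values of 97.6 and 94.4. None of the 5 was overlapped by a peak in any deposited LHCN list.

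Within that span the RH30 libraries held 27 to 64 peaks that covered 17.7% to 55.5% of its length, with 6 to 10 peaks in the strongest 10% of each list. The LHCN libraries held 1 peak in the second PAX3-FOXO1 library, at the 1.29th percentile, and 0 in the other 3. Of 55 merged regions in the span, 14 were in all 10 RH30 and no LHCN library, and 0 were in all 14. The span was picked after its values were seen. Over the block, RH30-only regions were weaker and wider than elsewhere, with a median of the median percentile of 57.8 in the block and 71.9 in the rest of the genome, and median widths of 2355 bp and 856 bp. Regions merged from long peaks are wide by construction.

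The strongest regions in all 14 lists were spread along the block. The first was chr11:76776607-76786805, at the 98.2nd to 99.9th percentile in RH30 and at the 94.0th to 97.6th in LHCN. It was high in both lines. In contrast chr11:75263819-75266784 had a median of 99.6 in RH30 and 63.4 in LHCN, and chr11:70840215-70843559 had 99.6 in RH30 and 78.7 in LHCN. The wide region chr11:71931636-71953783 had 99.7 in RH30 and 83.3 in LHCN, and chr11:77896499-77902851 had 99.4 in RH30 and 99.1 in LHCN. At this last region, near the right limit of the block, the lines differed little.

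LHCN-only regions were few, short and of middling strength. Of the 6, 4 lay in the window from 69 to 70 Mb. The 5 named by their percentile included chr11:69403037-69403504, chr11:69332878-69333313 and chr11:69156290-69156625, all below the CCND1 position. Their LHCN medians were 46.2, 37.7 and 25.6. The others, chr11:74494345-74494849 and chr11:76271193-76271587, had medians of 42.4 and 35.2, and the first of these had a peak in 1 deposited RH30 list.

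With PAX3-FOXO1, myoblasts had slightly fewer block peaks. Compared over lists of 170390 peaks, block peaks numbered 605 and 649 with PAX3-FOXO1 and 683 and 700 with vector. The strongest 10% of those lists held 50 and 47 of them with PAX3-FOXO1 and 60 and 64 with vector. In lists of 93488 peaks it held 21 and 22 with PAX3-FOXO1 (5.83% and 5.95% of block peaks) and 37 and 40 with vector (9.59% and 10.3%). A region was called gained when both treated and no control libraries had a peak there, and lost in the reverse case. Of 872 block regions, 49 were gained (5.62%), where 8.13% of all regions were gained, and 80 were lost (9.17%), where 8.44% were lost. A comparison of 2 with 2 libraries allows no exact permutation p below 0.333, so none of these calls carries a test. The lost share was near the background and the gained share below it. Lost regions outnumbered gained ones in 7 of 10 windows, gained ones in 2 (70 to 71 and 76 to 77 Mb), and 1 was even. With fewer libraries to agree, the gained count was 88 without the first PAX3-FOXO1 library and 83 without the second, and the lost count was 121 without the second PAX3-FOXO1 library and 149 and 130 without the first and the second vector library.

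The gained block regions were of moderate strength. Both PAX3-FOXO1 libraries had chr11:76943923-76944278 at percentiles of 70.2 and 71.3, and neither vector library had it. The others named were chr11:70391092-70391990, next to the span of strong RH30-only regions, at 67.5 and 76.6, and chr11:76960415-76960847, chr11:69148645-69149050 and chr11:71713203-71713659. Of these 5, 4 had a peak in 10 of 10 deposited RH30 lists and chr11:76960415-76960847 in 5. The 5 lost regions named, led by chr11:75797768-75798085 at 61.1 and 62.2 in the vector libraries, had a peak in 0 to 8 deposited RH30 lists. Over all block calls, 31 of 49 gained regions (63.3%) and 2 of 80 lost ones (2.50%) were overlapped by a peak in all 10 trimmed RH30 lists. In the rest of the genome those shares were 8.01% of 18996 gained and 0.625% of 19684 lost regions. Regions in all 4 LHCN libraries were overlapped in all 10 RH30 lists in 59.8% of cases in the block and 24.3% elsewhere, so the gained regions of the block were overlapped about as often as its constant ones.

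QC6352 libraries had more block peaks than DMSO libraries. In lists of 105136 peaks the block took 2.42% and 2.07% with QC6352, against 1.47% and 1.69% with DMSO. The groups did not overlap. Of 2774 block regions, 323 were gained (11.6%), where 6.50% of all regions were gained, and 44 were lost (1.59%), where 7.28% were lost. Gained regions outnumbered lost ones in 10 of 10 windows, from 71 against 4 at 70 to 71 Mb to 9 against 7 at 77 to 78 Mb. In the window of CCND1 the counts were 14 gained and 8 lost of 292 regions. The gained share there was below the 6.50% over all regions. The same was true at 77 to 78 Mb, with 9 gained of 162 regions, and the gained share was above 6.50% in the remaining windows. Without the second QC6352 library the gained count was 1034 and the lost count 160, and without the first it was 846 gained and 79 lost. Without the first DMSO library the lost count was 243, and without the second the counts were 491 gained and 111 lost. Fewer libraries then have to agree.

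Most gained regions were weak, with a median of 20.4 for the lower percentile of the QC6352 pair, against 23.9 over the genome. The strongest, chr11:73281375-73281793, stood at 86.9 and 93.5 with QC6352 and was absent with DMSO, and it was present in 4 of 4 deposited LHCN lists. Next came chr11:74761565-74762464, chr11:74041520-74041870, chr11:73078509-73080289 and chr11:72480748-72481036, with lower percentiles of 63.6 to 71.1. All 5 lie between 72 and 75 Mb. The strongest lost region, chr11:76164295-76164654, stood at 63.5 and 67.9 with DMSO and was absent with QC6352. One named lost region, chr11:69614767-69615326, lies 155 kb above the CCND1 position, at 38.5 and 43.4 with DMSO.

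The QC6352 libraries differed from each other in width and strength. Median block width was 341.5 and 675 bp with QC6352, against 365 and 422 bp with DMSO, so that the QC6352 pair lay on both sides of the DMSO pair. The second QC6352 library also had the longest deposited list of all, with 176899 peaks against 111272 in the first. Its peaks elsewhere were wide too, with a median of 441 bp outside the block against 321 bp in the first. The part of list length in the result was not tested beyond trimming.

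The hairpin libraries moved the other way by label. Block peaks in lists of 93488 were 918 and 1594 in the libraries labelled shKDM4B-813, 1389 and 1813 in those labelled shKDM4B-814, and 2171 and 2281 in those labelled shCtrl. Both hairpin groups lay below the shCtrl pair, and both comparisons share that pair. For shKDM4B-813 against shCtrl, 49 of 2557 block regions were gained (1.92%), where 11.0% of all regions were gained, and 444 were lost (17.4%), where 7.08% were lost. For shKDM4B-814 against shCtrl, 25 were gained (0.978%), where 5.77% of all regions were gained, and 351 were lost (13.7%), where 5.81% were lost. Lost regions outnumbered gained ones in 10 of 10 windows in each comparison. Leaving out 1 library at a time, which also loosens the rule, gave 70 to 125 gained and 484 to 976 lost for shKDM4B-813, and 46 to 130 gained and 464 to 846 lost for shKDM4B-814, with the highest lost counts without the first shCtrl library. Among the lost regions named for shKDM4B-813 were chr11:70678378-70679642, at 72.0 and 73.2 in the shCtrl pair, and chr11:69968565-69970041, at 71.0 and 78.3. This last region and chr11:76447769-76448535, also named, had a peak in 10 of 10 deposited RH30 lists. Both were thus lost only in the trimmed lists. The lost regions named for shKDM4B-814 included chr11:71816978-71817323, at 68.3 and 69.3 in the shCtrl pair, and 4 regions between 70 and 71 Mb. None of the named lost regions of either comparison had a peak in a deposited LHCN list. This was common in the block, where 84.2% of regions had an RH30 peak and no LHCN peak in the trimmed lists. The gained regions named were led by chr11:75365340-75365808, at 72.5 and 77.9 in the shKDM4B-813 pair, and chr11:72730516-72730807, at 71.0 and 80.0 in the shKDM4B-814 pair.

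By the peak names the direction changed for shKDM4B-813. The libraries whose peaks are named after sh813 then stand above those named after shCtrl, with 2171 and 2281 block peaks against 1389 and 1813. For shKDM4B-813 against shCtrl by peak names, 351 block regions were gained (13.7%), where 5.81% of all regions were gained, and 25 were lost (0.978%), where 5.77% were lost. For shKDM4B-814 against shCtrl by peak names, 48 were gained (1.88%), where 4.79% of all regions were gained, and 71 were lost (2.78%), where 2.58% were lost. The libraries named after sh814 had 918 and 1594 block peaks, a range that overlaps that of the libraries named after shCtrl. By peak names the mean share of the block was 2.38% for sh813, 1.34% for sh814 and 1.71% for shCtrl. The 2 hairpins thus lay on different sides of shCtrl by peak names, and both lay below it by label. No sign of a KDM4B effect on the block can be given from these lists. Under either reading the pair labelled shCtrl is the hairpin group with most block peaks.

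**Figure D4:**
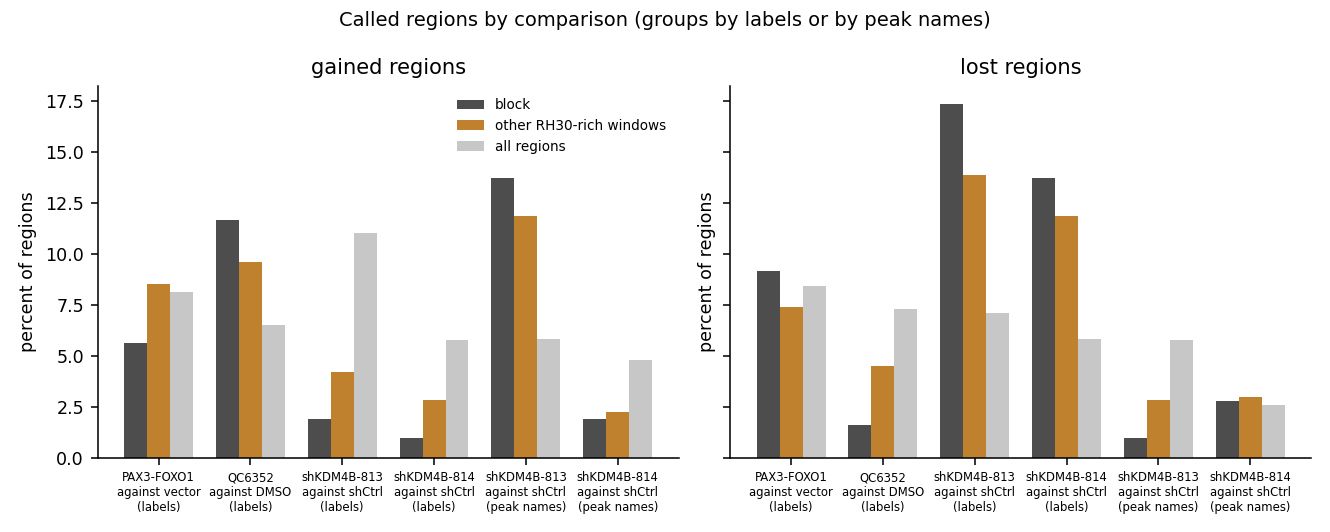
Gained and lost regions as a percent of regions, for each comparison with the hairpin groups taken by labels and by peak names. Dark bars are the block, brown bars are 352 other autosomal windows with a ratio above 2 times the median, and light bars are all regions. The other windows leave out only the 9 whole windows of the block. In the block 11.6% of regions were gained with QC6352 and 17.4% were lost with the hairpin labelled shKDM4B-813.

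Other windows rich in RH30 peaks had more gained than lost regions with QC6352 and more lost than gained in both label-based hairpin comparisons, as in the block. Taken over the 352 other autosomal windows above 2 times the median ratio, 9.57% of regions were gained and 4.48% lost with QC6352. The libraries labelled shKDM4B-813 had 4.19% gained and 13.9% lost there, and those labelled shKDM4B-814 had 2.84% gained and 11.9% lost. These 6 shares lie between those of the block and of all regions. By peak names they were 11.9% gained and 2.84% lost for shKDM4B-813, and 2.23% gained and 2.97% lost for shKDM4B-814, of which the last is above both the block and all regions. With PAX3-FOXO1 those windows had 8.53% gained and 7.37% lost, with more gained than lost regions where the block had more lost. The windows were picked after seeing the data, and no difference between them and the block was tested.

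Averaged over the compound and hairpin experiments, no common shift of the block was detected. The share of peaks in the block differed by −0.11 percentage points between perturbed and control libraries, averaged over the 2 experiments with groups by label (exact permutation test within experiments, two-sided, 90 label sets, p = 0.756, adjusted p = 0.978 over 3 measures). The contributions had opposite signs, with 0.643 percentage points for QC6352 minus DMSO and −0.853 for the hairpins minus shCtrl. Opposite shifts cancel in such an average, which also takes the 2 hairpins as 1 condition, so it does not test either perturbation alone. Median width differed by −10.3 bp (exact p = 0.978, adjusted p = 0.978) and the median percentile by −5.36 (exact p = 0.311, adjusted p = 0.933). By peak names the differences were 0.396 percentage points in share (exact p = 0.233), 142.8 bp in width (exact p = 0.122, adjusted p = 0.183) and 9.71 in percentile (exact p = 0.100, adjusted p = 0.183). The smallest p this design allows is 0.0111.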

How the data were processed

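ATAC-seq peak lists of 14 libraries were analysed, 1 list per library. The submitters' processing notes name MACS2 2.1.1, SAMtools 1.3.1, Picard 1.65, BWA 0.7.12-r1039 and build hg19, without roles. Settings, read filters and any Tn5 shift were not given in those notes. For every peak the authors deposited a fold ratio over background, a −log10 p-value, a −log10 q-value and a display score, which was not used. The lowest deposited −log10 q of a list was 2.00 to 2.60, so weaker places are not listed. Read depth is unknown, so no counting interval is given. Groups and replicate numbers came from sample titles.

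Lists were trimmed to equal length by −log10 q (ties by fold and then by position), to 93488 peaks across all libraries and within the hairpin experiment, 105136 within the compound experiment and 170390 within LHCN. Peaks were merged into regions, and a library was present with an overlap of 1 bp or more. Calls, windows and exact permutation tests were computed in Python 3.11.15 with pandas 2.3.3 and NumPy 2.4.6. The call rule was run on simulated presence data, where it returns seeded regions by construction, and the permutation test on made-up values. The regions named were the 5 strongest per class and per call, by the rule of percentile, and the region nearest CCND1. The block, the lists and the tests were chosen with earlier results of these data known. Alternatives were lists as deposited, −log10 q of at least 10, the 50000 strongest peaks, 50% coverage, other edge settings, a replicate block and leaving out each library.

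Whether replicate numbers pair the libraries was checked over 2870 windows: the replicate differences of the compared groups correlated at 0.19 for PAX3-FOXO1 and vector, −0.32 for QC6352 and DMSO, 0.0812 for shKDM4B-813 and shCtrl and 0.14 for shKDM4B-814 and shCtrl, so the numbers were not taken to pair them.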

Additional observations from a re-analysis of the deposited data

Results flagged for a closer look

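The first library labelled shKDM4B-813 stood apart from the other RH30 libraries in the spacing of block peaks, with a median gap of 4264 bp where the next highest RH30 library had 2102 bp. This was the only such case among 12 pairs of a group and a measure, and chance marks about 1 in 20. In the lists as deposited its median gap was 1315 bp, below the 1502 bp of the first DMSO library and the 1540 bp of the first library labelled shKDM4B-814, so it stood apart only in the trimmed lists. Without this library the RH30 to LHCN ratio of the share of peaks was 4.72, against 4.50 with it.

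The hairpins and QC6352 moved the share of peaks in the block in opposite directions by label. The difference in share was −1.04 percentage points for the libraries labelled shKDM4B-813 minus those labelled shCtrl and −0.669 for those labelled shKDM4B-814 minus the same pair. It was 0.643 for QC6352 minus DMSO. The difference between these effects was not tested, and by peak names the mean of the hairpins minus shCtrl was 0.150. That mean joins hairpins on different sides of shCtrl. By peak names the share averaged 2.38% for sh813, 1.34% for sh814 and 1.71% for shCtrl.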

How the results depend on the processing

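The RH30 to LHCN ratio of the share of peaks stayed within 1 SD of the RH30 libraries of its value under each alternative run, and was 4.32 to 4.72 with each library left out in turn. It was lower among stronger peaks, at 3.49 with −log10 q of at least 10 and 3.69 with the 50000 strongest peaks. As a share of the bases covered by peaks it was 5.52. Gained and lost counts depended on the list length. With the 50000 strongest peaks they were 11 gained and 34 lost for PAX3-FOXO1, 106 gained and 23 lost for QC6352, and 24 gained for shKDM4B-813. With −log10 q of at least 10 they were 63 gained and 27 lost for QC6352 and 197 lost for shKDM4B-813. With lists as deposited they were 28 lost for QC6352, and 13 gained and 642 lost for shKDM4B-814, and with 50% coverage 701 lost for shKDM4B-814. With groups by peak names, chosen after seeing the data, they were 351 gained and 25 lost for shKDM4B-813 and 48 gained and 71 lost for shKDM4B-814. Leaving out each library gave 65 to 88 gained and 104 to 149 lost for PAX3-FOXO1, 361 to 1034 gained and 79 to 243 lost for QC6352, 70 to 125 gained and 484 to 976 lost for shKDM4B-813, and 46 to 130 gained and 464 to 846 lost for shKDM4B-814, since fewer libraries must then agree. The causes of the other shifts were not tested.

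The difference in share between perturbed and control libraries was −0.174 to −0.0141 percentage points with each library left out. It was −0.379 with −log10 q of at least 10 (exact p = 0.322) and −0.434 with the 50000 strongest peaks (exact p = 0.256). It turned to 0.0642 (exact p = 0.822) with lists as deposited, 0.643 in the compound experiment alone, 0.396 by peak names (exact p = 0.233) and 0.150 in the hairpin experiment alone by peak names. With the replicate block it was −0.105 (exact p = 0.778, 36 label sets), and 0.396 by peak names (exact p = 0.306). Pairing libraries by number left the calls as they were, for instance 323 gained and 44 lost for QC6352, and the crossed pairing of QC6352 and DMSO, added after seeing the data, also gave 323 and 44, since the call rule is the same under any pairing. The left edge was at 69.35 Mb with 3 times the median and 65.95 to 69.35 Mb with a library left out. The right edge was at 80.25 Mb with 1.5 times the median, 74.35 Mb with 3 times, 80.5 Mb with windows of 1 Mb, 80.35 Mb with lists as deposited and 77.15 to 80.25 Mb with a library left out. Read depth is unknown, and a place absent from a list may lie just below its limit.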
